A study of Gallus gallus with 30 samples.

Results

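A group of 42 chicken genes was present in the granulosa cell layer of the smallest follicles collected and was low from the F3 follicle until after ovulation. They were selected on FPKM, a count of sequenced fragments scaled to transcript length and to the number of fragments mapped in the library, out of 23910 genes in the expression table. A gene was chosen by a mean of at least 10 FPKM over the 3 libraries of small white follicles (SWF), a value under 1 FPKM in each of the 9 libraries of F3, F2 and F1, and a mean under 1 FPKM over the 3 libraries of postovulatory follicles (POF). Genes with a symbol in the study's list of the most abundant genes shared by the stages were to be left out, and 0 genes had to be. The choice used 15 of the 30 libraries, so the values of SWF, F3, F2, F1 and POF are given as a description with no test. Tests were run only on large white (LWF), small yellow (SYF), large yellow (LYF), F5 and F4 follicles, which the choice did not use. A gene above 10 FPKM in SWF and under 1 FPKM in F3 has to be lost somewhere between, so in these tests the timing is open to measurement and the direction is not.

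RNA sequencing was done on follicular granulosa cell layers of Luhua hens aged 31 weeks, with no treatment and no engineered allele in any group. The 10 stages ran from the prehierarchical SWF, LWF, SYF and LYF through the preovulatory follicles, which are numbered down from F5 to F1, to POF, with 3 libraries each that the study describes as biological replicates. How many hens were used, and whether one hen gave several follicles, was not given in the sources used here. For 6 libraries the sample titles and the short descriptions exchange LWF and SYF, and the descriptions, which match the column names, were followed. Every comparison that takes LWF and SYF together is the same whichever is right.

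In the laying hen, small white follicles grow into large white and then small yellow follicles, and from this pool single follicles are selected into the hierarchy that ends in ovulation of F1. The granulosa layer lies between the oocyte and the theca. Before selection its cells divide and make little steroid, and after selection they differentiate and make progesterone under luteinizing hormone. The ruptured follicle remains in the ovary as the POF, and it is resorbed without forming a lasting corpus luteum. These are facts about the tissue and not results.

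The values were relative ones. The sum of FPKM per library ranged from 471009 to 642207. The study reports its clean reads and summarizes the sequencing per sample, but no read counts were used here. The relative depth, read from the commonest low value as 1 fragment, ranged from 1 to 1.54 between libraries. ZP3, an egg coat protein gene that granulosa cells transcribe in birds, was at 809 to 1495 FPKM in SWF, at 61147 to 79014 FPKM in F1 and at 341 to 9970 FPKM in POF, so the labelled tissue carried its marker in every library. ENSGALG identifiers are the only names the table gives for any gene. Of all its identifiers 0 matched the reference gene table, and so 0 of the 42 did. Functions, protein sequences and promoters of these genes are therefore not given. For the same reason marker lists of oocyte, theca, stroma, blood and vessel cells could not be looked up, and the part of other cell types in these values was not tested. In such bulk samples, fewer cells of a type and less RNA per cell cannot be told apart.

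Of 7003 genes with an SWF mean of at least 10 FPKM, 117 (1.67%) were under 1 FPKM in all 9 libraries of F3, F2 and F1. The 42 genes described here stayed under a mean of 1 FPKM in POF, and the remaining 75 were at 1 FPKM or more there. Most of the 42 were of moderate level in SWF: their means ran from 10.2 to 90.6 FPKM with a median of 15.3 FPKM, and 31 of them were under 20 FPKM. The 5 with the highest means, all at least 40 FPKM, made up 32.5% of the summed SWF level. The SWF limit cut through a dense range, with the nearest gene inside at 10.2 FPKM, the nearest outside at 9.92 FPKM, 8 genes inside up to 12 FPKM and 22 genes outside down to 8 FPKM. At the limit on F3, F2 and F1 the nearest values were 0.965 FPKM inside and 1.04 FPKM outside, and at the limit on POF the nearest means were 0.952 and 1.07 FPKM.

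The summed level of the 42 genes was 872 ± 228 FPKM in SWF, 295 ± 92.3 in LWF, 201 ± 110 in SYF, 53.4 ± 50.6 in LYF, 44.4 ± 26.0 in F5 and 17.3 ± 14.7 in F4 (mean ± SD, n = 3 libraries each). In F3, F2 and F1, where the choice set them low, the sums were 4.07 ± 2.51, 5.11 ± 4.33 and 2.90 ± 1.36 FPKM, and in POF 8.31 ± 1.66 FPKM (SD, n = 3). The SDs of LYF and F4 were nearly as large as their means. As a share of its own SWF mean, the median gene was at 27.8% in LWF (quartiles 23.9 to 35.8%), 19.9% in SYF (14.7 to 24.7%), 4.29% in LYF (2.73 to 5.44%), 4.11% in F5 (2.91 to 6.68%) and 0.759% in F4 (0.357 to 1.254%). The LYF and F5 shares were close, while the LWF mean was above the SYF mean in 38 of the 42 genes. In 37 of the 42 the means were ordered SWF above LWF above SYF above LYF. The order of LWF and SYF here is that of the column names, and by the sample titles it would be the reverse. By column name, ZP3 was at 2301 to 3490 FPKM in LWF, 3307 to 7175 FPKM in SYF and 7537 to 12636 FPKM in LYF. The 75 genes present again in POF had median shares of 42.5% in LWF, 24.0% in SYF, 4.52% in LYF, 4.26% in F5 and 1.19% in F4.

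**Figure D1:**
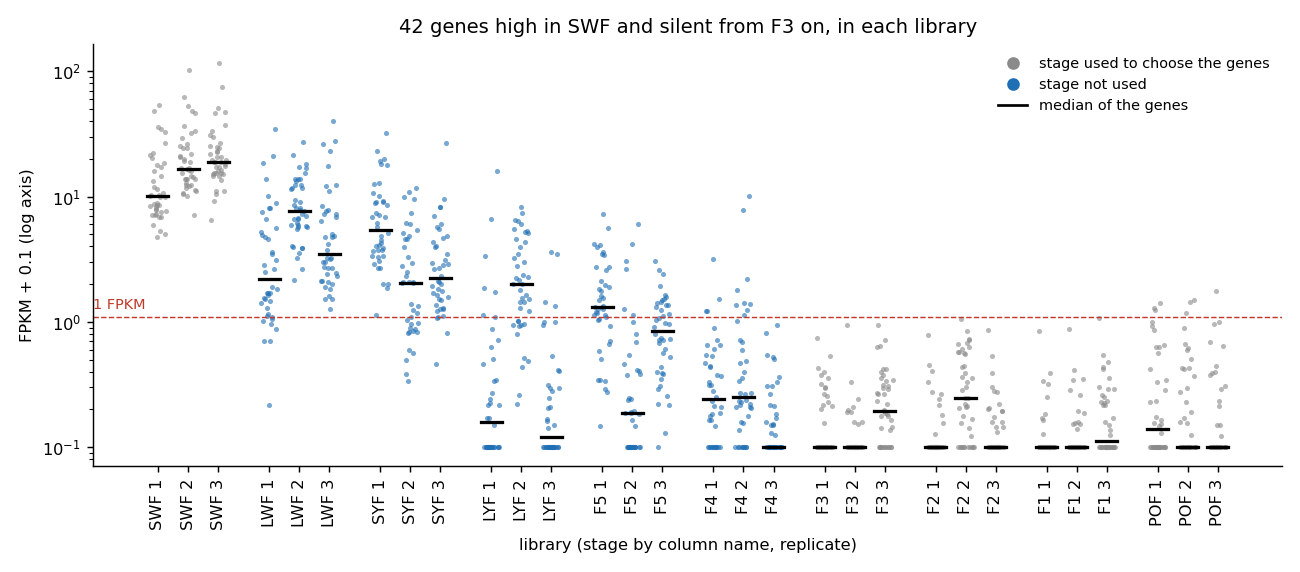
Level of each of the 42 genes (points, FPKM + 0.1 on a log axis) in each of the 30 libraries (x axis, stage by column name and replicate), with the median as a black bar and 1 FPKM as a dashed line. Grey stages chose the genes and blue stages did not; LYF replicate 2 has a median of 1.92 FPKM, against 0.0596 and 0.0208 FPKM in LYF replicates 1 and 3.

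The number of these genes at 1 FPKM or more followed the same course and differed widely within stages. All 42 were at 1 FPKM or more in the 3 SWF libraries, and 34, 42 and 42 were in LWF replicates 1, 2 and 3. In SYF the numbers were 42, 27 and 38. In LYF they were 6, 30 and 4, in F5 28, 6 and 16, and in F4 4, 9 and 0. In LYF the highest library stood apart from the others. No F4 library reached the number of F5 replicate 3, but F4 replicate 2 was above F5 replicate 2.

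**Figure D2:**
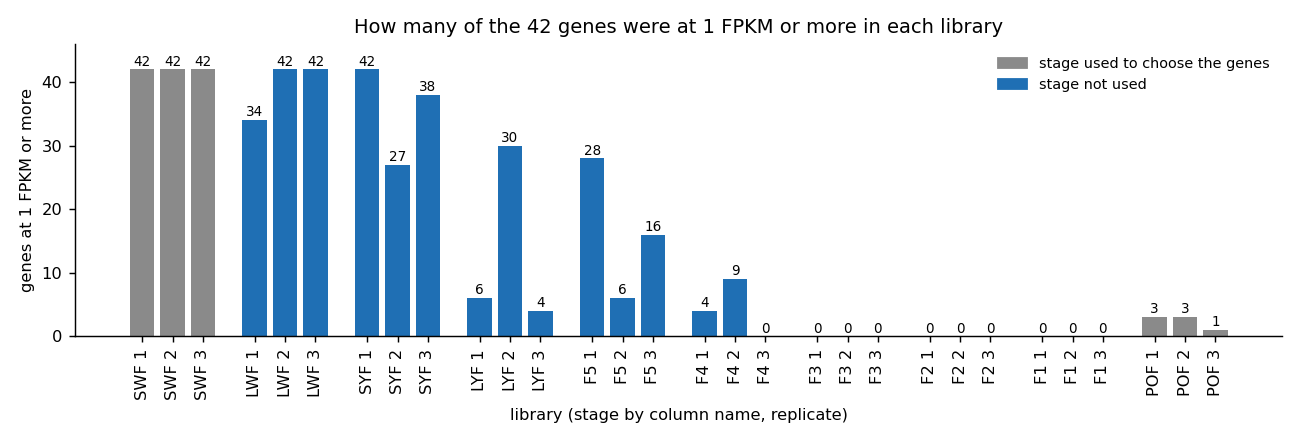
Number of the 42 genes at 1 FPKM or more (bars, y axis) in each library (x axis). Grey bars are the stages that chose the genes; among the blue ones, LYF replicate 2 has 30 genes against 6 and 4 in the other LYF libraries, and F5 replicate 1 has 28 against 6 and 16.

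By column name, and with loss defined as the first stage from which every library up to F1 was under 1 FPKM, 0 of the 42 genes were lost at LWF or SYF, 5 at LYF, 8 at F5, 20 at F4 and 9 at F3. F4 was thus the commonest stage of loss by this definition with all libraries used, and 33 genes were lost by then. The 9 genes lost at F3 had a median SWF mean of 27.6 FPKM (12.1 to 90.6). The medians were 12.9 (10.6 to 15.4), 15.2 (10.2 to 52.1) and 14.1 FPKM (10.2 to 25.3) for those lost at LYF, F5 and F4. These ranges overlap, and the choice used the SWF means. With a fixed limit of 1 FPKM a higher start by itself favours a later loss, so the medians are only a description. Among the 75 genes present again in POF, 1 was lost at SYF, 10 at LYF, 10 at F5, 32 at F4 and 22 at F3. No test was run on these counts, since the F3 libraries that end the count also chose the genes.

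The stage named depended on how loss was read, and in several genes a single library was above the limit. In LYF, 24 of the 42 genes were at 1 FPKM or more in 1 library only, and in all 24 this was replicate 2. In F5, 13 genes were at 1 FPKM or more in 1 library only, which was replicate 1 for 12 of them and replicate 3 for 1, and in F4 there were 5 such genes, all in replicate 2. With stage means under 1 FPKM in place of every library, 1 gene was lost at SYF, 22 at LYF, 3 at F5, 11 at F4 and 5 at F3. With a stage mean under 10% of the SWF mean, 2 genes were lost at SYF, 33 at LYF, 2 at F5, 3 at F4 and 2 at F3. Without F5 replicate 1, the numbers by the first definition were 12 at LYF, 12 at F5, 9 at F4 and 9 at F3, so that 24 genes were lost by F5 in place of 13. Without LYF replicate 2 they were 13 at LYF, 0 at F5, 20 at F4 and 9 at F3. Without both LYF replicate 2 and F5 replicate 1, a setting added after the data were seen, they were 24 at LYF, 0 at F5, 9 at F4 and 9 at F3. LYF was the commonest stage by either definition from means. A stage mean is under 1 FPKM whenever every library is, and with SWF means of at least 10 FPKM, 10% of them is at least 1 FPKM. Both definitions from means can therefore only place a loss at the same stage or earlier. By the definition that asks every library to be low, F4 was the commonest with all libraries but not without F5 replicate 1.

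**Figure D3:**
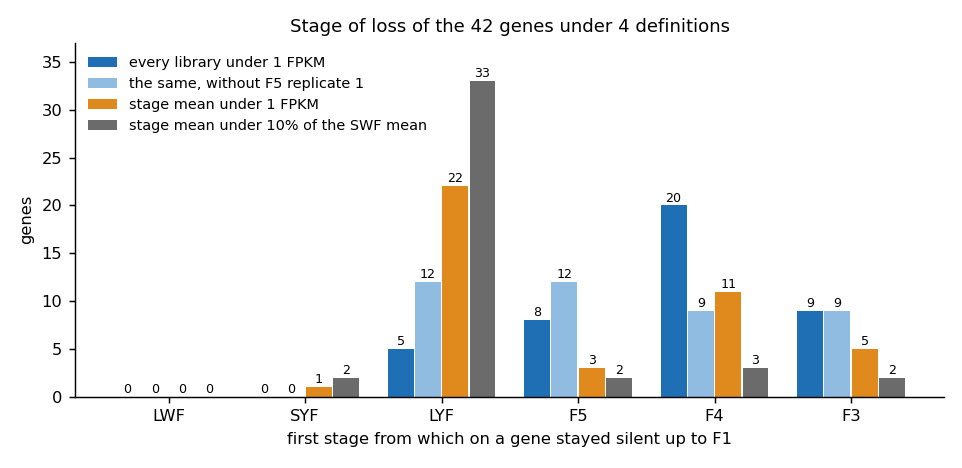
Number of the 42 genes (y axis) by the first stage from which they stayed silent up to F1 (x axis), under 4 definitions of silence (colours). F4 holds 20 genes where every library has to be under 1 FPKM, and 9 when F5 replicate 1 is left out. LYF holds 22 where the stage mean has to be under 1 FPKM and 33 where the mean has to be under 10% of SWF.

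LWF and SYF were compared with F5 and F4 to ask whether the genes were already lower before the stages that chose them. All 42 genes had higher estimates in LWF and SYF, and 41 passed the test in that direction. The median difference was 1.57 on the scale of log2(FPKM + 1), with a range of 0.64 to 3.31, and the median ratio of mean FPKM was 10.2 (2.08 to 52.0). Over all 15197 genes tested the median difference was 0.18. Passing meant an adjusted p under 0.05 by limma with Benjamini-Hochberg adjustment over the 15197 genes and a difference in FPKM + 1 of over 1.5-fold, and 16.3% of all genes passed as higher in LWF and SYF, 6.34% as lower and 22.7% in either direction. The 42 genes are in that table through their SWF level, which the choice set. The gene that did not pass had a difference of 0.64 and an adjusted p of 0.19 by limma. Every one of the 6 libraries of LWF and SYF was above all 6 libraries of F5 and F4 in 19 of the 42 genes, against 9.29% of all genes. Of the 75 genes present again in POF, 71 passed as higher in LWF and SYF. Over the tested genes with a mean above 1 FPKM the median difference was 0.20, and upper quartile scaling and quantile normalization moved it by −0.15 and −0.19. Under these scalings 38 and 34 of the 42 passed, all of them higher in LWF and SYF.

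LWF and SYF were then compared with LYF alone, to ask whether the genes were already lower at the last prehierarchical stage. Any fall after LYF is outside this comparison. Here 30 of the 42 genes passed as higher in LWF and SYF by the same limma test and 0 as lower, against 12.2% of all genes as higher, 2.14% as lower and 14.3% in either direction. The median difference was 1.497 on the log2(FPKM + 1) scale (0.50 to 2.86), beside 0.26 over all genes tested, and the median ratio of mean FPKM was 5.57. Of the 12 genes that did not pass, adjusted p ran from 0.054 to 0.41 by limma. An unadjusted p under 0.05 by limma was found in 38 of the 42, against 5173 of all 15197 genes (34.0%). All 6 libraries of LWF and SYF were above all 3 of LYF in 12 genes (28.6%), against 14.8% of all genes. The number that passed was 4 without LYF replicate 1, 4 without LYF replicate 3 and 30 without LYF replicate 2, with median differences of the 42 of 1.33, 1.29 and 1.88. It was 17 without SYF replicate 1, 19 without LWF replicate 2, 18 with no filter on low values, 20 after quantile normalization and 4 with only these 3 stages in the fit, where the median difference was still 1.497, and in each of these settings every gene that passed was higher in LWF and SYF.

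In the 3 comparisons of single stages no gene of the 42 passed. LYF and F5 were the last prehierarchical and the first preovulatory stage collected. Between them 0 of the 42 and 0% of all 15197 genes passed the limma test. At an unadjusted p under 0.05 by limma there were 0 of the 42 and 570 of all genes. The median difference of the 42 was −0.02 on the log2(FPKM + 1) scale (−0.71 to 0.86), 21 genes being higher in LYF and 21 in F5, and 0 of the 42 had all LYF libraries above all F5 libraries, against 1.28% of all genes. Mean FPKM, by contrast with log values, was higher in LYF in 22 genes and in F5 in 20, and without LYF replicate 2 it was higher in F5 in 38. For F5 against F4, 0 of the 42 and 0% of all genes passed by limma, with 0 of the 42 and 334 of all genes at an unadjusted p under 0.05. The median difference was 0.48 and positive in 39 of the 42, and in 4 genes every F5 library was above every F4 library, against 5.49% of all genes. The median ratio of mean FPKM was 3.67 over the 35 genes with an F4 mean above 0. It was 1.22 for LYF against F5 and 1.47 for LWF against SYF. With a pseudocount of 0.1 the median difference between F5 and F4 was 1.28, and 0 of the 42 passed by limma. For LWF against SYF, 0 of the 42 and 1 gene in all (0.00658%) passed by limma, with 2 of the 42 and 589 of all genes at an unadjusted p under 0.05. The median difference was 0.49 and positive in 38 of the 42, and in 3 genes every LWF library was above every SYF library, against 4.85% of all genes. With the exchange of labels noted above, the sign of this last comparison is that of the column names. A p that misses the threshold in 3 libraries against 3 does not show that 2 stages were alike.

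ENSGALG00000001405 had the highest SWF mean of the 42 genes, and like every gene in the table it is given by identifier only. Its FPKM was 53.7, 102.2 and 116.0 in SWF replicates 1 to 3, 8.08, 13.7 and 22.8 in LWF, and 17.9, 7.25 and 5.91 in SYF. In LYF it was 0.784, 7.29 and 0.437, in F5 7.18, 1.03 and 2.32, and in F4 0.799, 1.04 and 0.402. The SWF libraries stood apart from all later ones, and LYF replicate 2 lay at the level of SYF replicate 2 while the other LYF libraries were under 1 FPKM. In F3, F2 and F1 it was listed at 0 in 5 of the 9 libraries, with a highest value of 0.613 FPKM. It fell by the test from LWF and SYF to F5 and F4, by a difference of 2.26 ± 0.48 (SE) on the log2(FPKM + 1) scale, with an adjusted p of 0.0045 by limma. Against LYF the difference was 2.15 ± 0.58 (SE) with an adjusted p of 0.029 by limma, which rose to between 0.053 and 0.12 in 7 of 18 alternatives, among them each fit without LYF replicate 1 or 3. Between LYF and F5 it was −0.46, with a 95% interval of −1.91 to 0.997.

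ENSGALG00000041407 had the highest LWF mean and came second in SWF. Its FPKM was 34.5, 48.3 and 75.04 in SWF, 20.9, 27.4 and 39.7 in LWF, and 19.7, 9.45 and 9.46 in SYF. In LYF it was 0.999, 4.27 and 0.894, in F5 2.51, 0.590 and 1.49, and in F4 0.614, 1.14 and 0.233. The drop between SYF and LYF left no overlap, with the lowest SYF library at 9.45 FPKM and the highest LYF library at 4.27 FPKM. Its difference between LWF and SYF on one side and F5 and F4 on the other was the largest of the 42, at 3.31 ± 0.32 (SE) with an adjusted p of 0.00016 by limma. Against LYF it was 2.86 ± 0.39 (SE) with an adjusted p of 0.0047 by limma, and both calls held in every alternative run. Between LYF and F5 the difference was 0.17, with a 95% interval of −0.80 to 1.15.

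ENSGALG00000001115 was singled out after its values were seen, as the only one of the 42 with a higher mean in LWF and in SYF than in SWF. Its FPKM was 18.6, 6.97 and 10.9 in SWF, 34.4, 15.4 and 27.9 in LWF, and 32.1, 11.6 and 26.6 in SYF, so that its LWF mean was 213% of its SWF mean. The ranges of SWF and of the 2 later stages overlapped. In LYF it was 15.8, 5.18 and 3.39 FPKM, in F5 5.56, 5.95 and 1.254, and in F4 1.43, 9.98 and 0.262. It was also the one gene for which LYF replicate 2 was not the highest LYF library. Its difference between LWF with SYF and F5 with F4 was 2.63 ± 0.53 (SE) on the log2(FPKM + 1) scale with an adjusted p of 0.0037 by limma. Against LYF the difference was 1.65 ± 0.65 (SE) with an adjusted p of 0.099 by limma, and 0.038 with all 30 libraries in the fit. F4 replicate 2 was thus far above the other F4 libraries, and in F3 its highest library was at 0.433 FPKM.

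**Figure D4:**
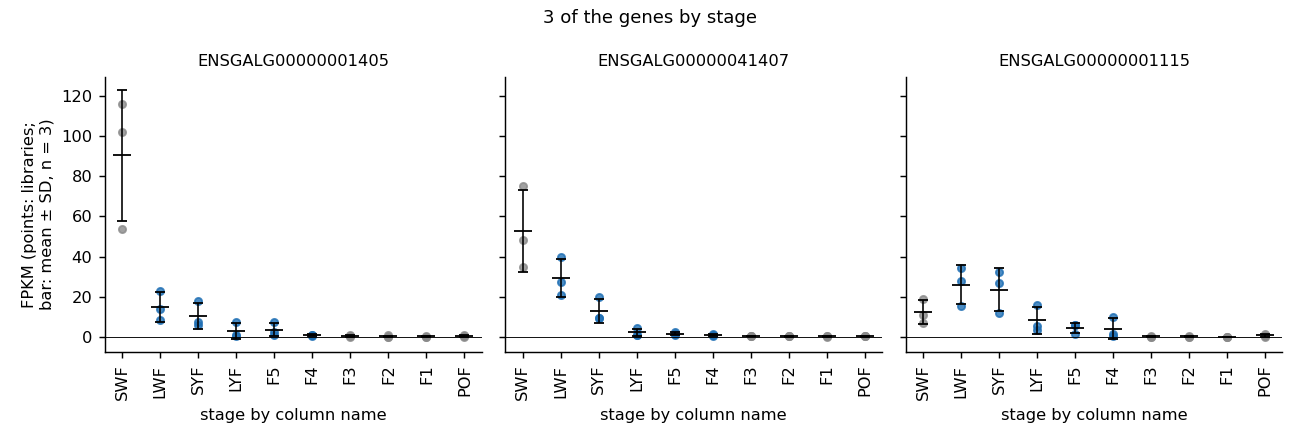
FPKM (y axis) of the 3 named genes by stage (x axis); points are libraries and bars the mean ± SD of 3 libraries, in grey for stages that chose the genes. The first gene is highest in SWF (53.7 to 116.0 FPKM), the second is still at 20.9 to 39.7 FPKM in LWF, and the third has its highest value in LWF (34.4 FPKM).

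By stage means that include LYF replicate 2, the share of the SWF level left in LYF separated a few genes from the rest. The split was not repeated without that library, which raised the LYF means of most genes. In 5 of the 42 genes, ENSGALG00000001115 among them, the LYF mean was at least 10% of the SWF mean, with shares of 13.3 to 66.9% and a median of 24.2%, and their shares were 6.47 to 35.04% in F5 and 3.65 to 32.0% in F4. In the other 37 genes the LYF share was 0.395 to 6.27% with a median of 3.85%. No gene lay between 6.27 and 13.3% in LYF, but in F5 the shares of the 37 reached 17.2% and overlapped with those of the 5. From LYF on, 35 of the 42 genes stayed under 10% of their SWF mean, and the remaining 7 were these 5 and 2 of the 37. LYF replicate 2 was the highest LYF library in all of these 37 genes and in 4 of the 5. Its part in the split was not tested.

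The replicates of a stage differed in these genes together. LYF replicate 2 was the highest LYF library in 41 of the 42 genes, and in 48.2% of all genes tested that were above 0 in LYF. In 32 of the 42 (76.2%) it was over 5 times the higher of the other LYF libraries, against 23 of the 75 genes present again in POF (30.7%) and 725 of 14435 genes with a value in LYF (5.02%). In 12 of the 42 genes LYF replicates 1 and 3 were both listed at 0, and over the other 30 the median ratio was 6.60. The sum of the 42 genes was 111 FPKM in LYF replicate 2 and 35.1 and 14.5 FPKM in replicates 1 and 3, which is 4.46 times their mean. In the same library more genes exceeded 0.5 FPKM (11894, against 11144 and 11562) and the upper quartile of FPKM was higher (19.9, against 14.2 and 17.9). Its relative depth was 1.11, between the 1.09 and 1.23 of the other LYF libraries. The part of these differences in the result was not tested.

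**Figure D5:**
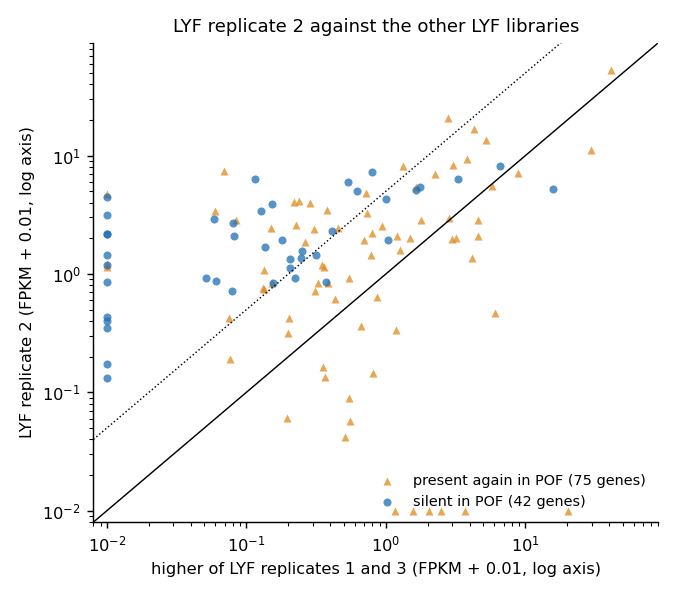
LYF replicate 2 (y axis) against the higher of LYF replicates 1 and 3 (x axis), both as FPKM + 0.01 on log axes, for the 42 genes (blue circles) and the 75 genes present again in POF (orange triangles). The solid line marks equal values and the dotted line a 5-fold difference, and 41 of the 42 blue points lie above the solid line.

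Other stages had such a library too. SYF replicate 1 was the highest SYF library in 40 of the 42 genes (43.9% of the tested genes detected in SYF), with 2.38 times the mean sum of the other SYF libraries. F5 replicate 1 was the highest F5 library in 32 (46.1% of the tested genes detected in F5), with 2.45 times. In 31 of the 42 genes all of SYF replicate 1, LYF replicate 2 and F5 replicate 1 were the highest of their stage, against 37 of the 75 genes present again in POF (49.3%) and 11.1% of all genes tested. In the other direction, SWF replicate 1 was the lowest SWF library in 36 of the 42, against 39.1% of all genes tested. In that share, ties that included replicate 1, as in genes not detected in SWF, were counted for it. SWF replicate 1 had 0.611 times the mean sum of the other SWF libraries, and LWF replicate 1 had 0.596 times that of the other LWF libraries. F4 replicate 3 had 0.192 times the mean sum of the other F4 libraries, with a relative depth of 1.54 against 1.09 and 1.15, and it is one of 6 libraries with a higher share of high-quality bases in the study's read table. The part of depth or read quality in its low sum was not tested. The choice used the values of SWF and none of LWF, SYF, LYF, F5 or F4. Its part in which replicate was highest or lowest was not tested.

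Each gene was correlated with the mean of the others on log2(FPKM + 1) over the 15 libraries of LWF, SYF, LYF, F5 and F4. The median correlation was 0.94 (0.64 to 0.99), with the common fall across stages included. Taken as deviations from the stage means, the median was 0.85 (0.024 to 0.95) and 39 of the 42 genes were at 0.5 or above. Among 15110 other genes tested whose values varied within stages, the genes present again in POF included, 18.7% were at 0.5 or above against the mean deviation of the 42, with a median of 0.25. These libraries share depth and makeup across genes, so the correlations are given as a description. The lowest value, 0.024, was that of ENSGALG00000001115.

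In the silent stages the genes were seldom at a clear level. Of the 378 values of the 42 genes in F3, F2 and F1, 220 (58.2%) were listed at 0 and the highest was 0.965 FPKM, and 1 gene was listed at 0 in all 9 libraries. In POF, 68 of 126 values were listed at 0, and 13 genes were at 0 in the 3 POF libraries. The limit on POF applied to the mean, and 5 genes were at 1 FPKM or more in at least 1 POF library, 2 of them in 2 libraries, with a highest value of 1.65 FPKM. A value listed at 0 does not show that a transcript was absent, since the number of fragments behind it is unknown.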

How the data were processed

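RNA from granulosa cell layers was sequenced as strand-specific, rRNA-depleted paired-end libraries. The authors mapped reads to GRCg6a with HISAT2 2.1.0 and deposited FPKM per gene from StringTie 1.3.3; no further scaling between libraries is stated. FPKM are relative, so a few abundant genes can move all others, and low values rest on few fragments. Members were found by the rule given at the start of the results. The genes and lists were chosen with earlier results of these data known.

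The 15197 genes with FPKM above 0.5 in at least 2 libraries of any stage were tested with limma 3.58.1 (R 4.3.3) on log2(FPKM + 1), in 1 fit of a mean per stage over the 15 libraries of LWF, SYF, LYF, F5 and F4, with a trended spread and Benjamini-Hochberg adjustment. The script was tested on simulated data. Fold changes on this scale understate those of low genes. Identifiers named were the members with the highest SWF and LWF means, and 1 added after its values were seen. Gene name, marker and pathway lists could not be applied, because 0 identifiers matched the RefSeq table. Tables and figures were made with Python 3.11.15, pandas 2.3.3 and matplotlib 3.10.9. Alternatives covered the pseudocount (0.1), the filter, scaling, the libraries in the fit, the replicate block, the spread and leaving out each library.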

Additional observations from a re-analysis of the deposited data

How the results depend on the processing

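The comparison of LWF and SYF with F5 and F4 kept between 34 and 41 of the 42 genes called in every planned setting with all libraries, 33 to 40 with 1 library left out, and 37 without SYF replicate 1 and F5 replicate 1, a setting added after the data were seen. LWF and SYF against LYF was less stable: 18 genes passed with no filter on low values, 4 with only the stages compared, and 4 to 33 with 1 library left out. In both comparisons no gene of the 42 was called as lower in LWF and SYF under any setting, but the choice of the genes had set this direction. Scaling moved the split of all genes called: of those that passed between LWF with SYF and F5 with F4, 72.0% were higher in the former as deposited, 54.9% after upper quartile scaling and 50.0% after quantile normalization, and against LYF the shares were 85.0%, 54.6% and 48.6%. The number of genes lost at F5 or earlier, 13, was 6 at a limit of 0.5 FPKM, 26 by stage means, 37 by 10% of SWF, 13 to 24 with 1 library left out, and 24 without both LYF replicate 2 and F5 replicate 1, the last setting also added later. The group held 114 genes with an SWF limit of 5 FPKM, 11 with 20 FPKM, 28 with silence under 0.5 FPKM, 28 after upper quartile scaling, and 37 to 51 with 1 library left out. The cause of these movements was not tested. With the replicate number as a block, 39 genes were called against F5 and F4, 26 against LYF and 0 in the other comparisons. Whether the replicate numbers pair the libraries is not known and was not tested. Deviations of same-numbered libraries correlated with a median of 0.083 (−0.32 to 0.40), and 13 of 30 pairs exceeded 0.1. For different-numbered libraries the median was −0.041 (−0.39 to 0.34), and 10 of 60 pairs exceeded 0.1. Deviations within a stage of 3 libraries sum to 0, so these values are not independent of those for same-numbered libraries. No fragment counts per gene were used, so the number of fragments behind values near 1 FPKM is not known here.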
